A study of Mus musculus with 9 samples.

Results

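The 10 genes described here encode 3 subunits of the transcription factor NF-kB (Nfkb1, Rel and Rela), 3 regulators that act on it (Nfkbia, Nfkbiz and Tnfaip3), the 2 receptors of tumour necrosis factor (Tnfrsf1a and Tnfrsf1b), the ligand itself (Tnf) and the TNF-induced gene Tnfaip2. They were taken by name, and all 10 were found among the 24296 genes of the deposited joint expression matrix. The matrix holds single-cell RNA counts (UMIs, one per captured molecule) made with Seq-Well, which captures single cells with barcoded beads in small wells, from the whole left knee joint of 9 female 129/Sve mice aged 8 weeks. Healthy mice (n = 4, numbered 1 to 4) had phosphate-buffered saline injected into the joint. Sick mice (n = 5, numbered 1, 3, 4, 5 and 6) were sensitized to methylated bovine serum albumin (mBSA) and then received it in the joint, which gives antigen-induced arthritis, and all mice were sampled 1 week after the injection. The labels do not say whether the healthy mice were sensitized too, and the model is a single joint disease set off by 1 antigen at 1 time point. Each mouse is 1 library, so the mouse and its library cannot be told apart.

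NF-kB proteins work as dimers that are held in the cytoplasm by inhibitors of the IkB family until a signal from a receptor such as that for TNF leads to the inhibitor's destruction. Nfkb1 encodes p105, the precursor of the DNA-binding subunit p50, while Rela (p65) and Rel (c-Rel) carry the domain that activates transcription. Nfkbia encodes IkB-alpha, the classical inhibitor and itself a target of NF-kB, Nfkbiz encodes the nuclear IkB-zeta, and Tnfaip3 encodes A20, a ubiquitin-editing enzyme that dampens the pathway. TNFR1 (Tnfrsf1a) is found on most cell types and TNFR2 (Tnfrsf1b) mainly on blood and immune cells, and blocking TNF is an established treatment of inflammatory arthritis.

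A stretch of DNA that NF-kB can bind, the kB motif, has been described upstream of several of these genes, and the sequences below are shown because 3 of the 10 genes hold a close form of it next to their start. In RefSeq's start sites (build GRCm38.p6), 8 of the 10 genes had a window of 250 bases before the start, and Nfkb1 and Nfkbiz had none. The motif GGGNNTTTCC, searched on both strands, was present in the windows of Nfkbia, Rel and Tnfaip3, and in 464 of all 32851 windows of that length (1.41%). The looser NF-kB consensus, which overlaps with it, was found in the same 3 genes and in 1281 of all windows (3.9%). The sequences run 5′ to 3′ on the gene's own strand, which is the minus strand for all 3, with the match in capitals. The window of Nfkbia is chr12:55492648-55492897 and that of Rel is chr11:23770970-23771219. For Tnfaip3 the 30 bases next to the RefSeq start are given (chr10:19015411-19015440), since the GENCODE model of the gene begins further upstream.
Nfkbia: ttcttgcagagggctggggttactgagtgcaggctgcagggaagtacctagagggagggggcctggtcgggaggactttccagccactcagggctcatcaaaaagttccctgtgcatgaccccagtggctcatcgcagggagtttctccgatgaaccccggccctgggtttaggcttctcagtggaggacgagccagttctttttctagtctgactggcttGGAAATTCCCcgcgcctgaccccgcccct
Rel: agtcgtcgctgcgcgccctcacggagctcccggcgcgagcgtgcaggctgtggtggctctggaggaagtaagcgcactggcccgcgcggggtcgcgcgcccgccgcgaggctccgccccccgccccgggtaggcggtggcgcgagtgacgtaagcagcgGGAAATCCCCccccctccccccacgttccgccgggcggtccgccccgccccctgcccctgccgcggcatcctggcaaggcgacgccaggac
Tnfaip3: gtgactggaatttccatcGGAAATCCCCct
Counted from the start site, the match lay at bases -29 to -20 in Nfkbia, -91 to -82 in Rel and -12 to -3 in Tnfaip3. Read on the opposite strand it was GGGAATTTCC in Nfkbia and GGGGATTTCC in both Rel and Tnfaip3. A match describes the letters in the window only.

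After a filter on cells, 16749 of 16751 cells remained, with 896930 to 4675909 counts per mouse, and 8 cell barcodes occurred in more than 1 mouse. Healthy mice 2, 3 and 4 stood apart from the other libraries. In them 40.9% to 58.7% of cells fell into clusters that no marker list named, against 10.5% in healthy mouse 1 and 6.75% to 16.0% in the sick mice, and haemoglobin genes took 35.3% to 39.7% of their counts, against 17.6% in healthy mouse 1 and 10.2% to 27.9% in the sick mice. Cells were sorted in 2 ways. A gate took cells with a UMI of at least 3 markers of 1 class, and of more markers of it than of any other class. The gate on the granule genes of immature neutrophils (Camp, Ngp, Ltf, Lcn2 and others) held 7813 cells, or 46.6% of all, of which only 55.5% lay in neutrophil clusters, so it is called the granule-gene gate here and not a cell type. The erythroid gate has the same limit, since 52.5% of its 3368 cells lay in erythroid clusters. A cluster class, chosen after seeing this, was a group of cells clustered without the 10 genes and named from the same markers. The tissue is labelled joint, but cartilage markers were nearly absent (summed level 0 to 29.3 CPM, the count of a gene scaled to its library's total, with 2 of 7 markers in the matrix), fibroblast clusters held at most 1.95% of a mouse's cells, and most cells were of blood and marrow types.

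None of the 10 genes passed the test in the whole joint, in which the counts of all cells of a mouse were summed and sick mice compared with healthy mice (edgeR's quasi-likelihood test, false discovery rate 0.05). Of all 10323 genes tested, 97 passed (0.94%), so no call among 10 genes is close to the background. At an unadjusted p under 0.05 there were 3 of the 10 genes (Tnfaip2, Tnfrsf1a and Tnfaip3), beside 13.8% of all genes tested. DESeq2 on the same counts called 1 of the 10, Tnfaip2. The median log2 difference of the 10 genes was 0.20, and that of all genes tested was -0.02. In such sums, more cells of a type and more RNA per cell cannot be told apart. Cells of neutrophil clusters made up 5.81% to 32.2% of a healthy mouse's cells and 26.2% to 43.4% of a sick mouse's, and their part in the values that follow was not tested.

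**Figure D1:**
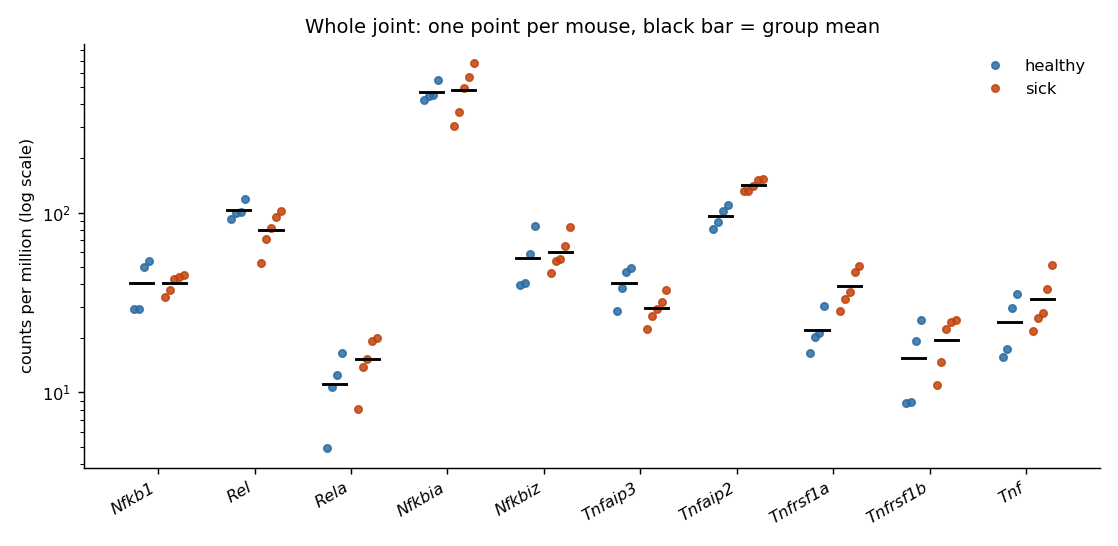
Level of each gene in the whole joint, in CPM on a log axis, with 1 point per mouse (blue healthy, n = 4; orange sick, n = 5) and the group mean as a black bar. Tnfaip2 is the gene whose 2 groups do not overlap (80.8 to 110 in healthy mice and 131 to 155 in sick mice).

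Among the subunits, Nfkb1 was measured at 29.1, 53.8, 49.9 and 29.1 CPM in healthy mice 1 to 4 and at 37.1, 42.7, 43.7, 44.9 and 33.8 CPM in sick mice 1, 3, 4, 5 and 6. The sick mice lay inside the range of the healthy mice, and the difference was 0.03 ± 0.21 (log2, sick minus healthy, with its standard error; adjusted p = 0.971), with a 95% interval from -0.39 to 0.44. Rel had 92.6, 119, 101 and 100 CPM in the healthy mice and 52.3, 81.6, 71.4, 94.99 and 101 CPM in the sick mice. The lowest 3 values were all in sick mice but the groups overlapped, and the difference of -0.35 ± 0.18 did not pass (edgeR, adjusted p = 0.419). Rela was the sparsest of the 3, with 5 to 22 counts in each healthy library and 14 to 104 in each sick one. Its level was 12.6, 16.7, 4.89 and 10.7 CPM in healthy mice and 13.8, 19.2, 8.06, 20.0 and 15.3 CPM in sick mice, and the difference of 0.49 ± 0.33 did not pass (edgeR, adjusted p = 0.539).

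Nfkbia, the IkB-alpha gene, was at 544, 423, 446 and 451 CPM in healthy mice. In sick mice it ranged more widely, at 301, 570, 363, 677 and 490 CPM, below and above every healthy mouse, so that the difference was 0.04 ± 0.21 (edgeR, adjusted p = 0.945). Nfkbiz stood at 84.6, 39.7, 58.7 and 40.8 CPM in healthy mice and at 55.0, 83.3, 53.5, 64.8 and 46.1 CPM in sick mice, with a difference of 0.09 ± 0.23 (edgeR, adjusted p = 0.896). The sick mice again fell inside the healthy range. Tnfaip3, the gene of A20, was at 49.1, 28.2, 46.9 and 37.9 CPM in healthy mice and at 22.6, 31.9, 26.5, 37.2 and 29.2 CPM in sick mice. Its difference was -0.48 ± 0.21 (unadjusted p = 0.0345, edgeR), which did not pass over all genes (adjusted p = 0.318), and healthy mouse 2 lay among the sick mice.

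Tnfaip2, first described as a gene induced by TNF in endothelial cells, was at 110, 80.8, 102 and 88.4 CPM in healthy mice and at 131, 155, 131, 141 and 152 CPM in sick mice. All 5 sick mice were above all 4 healthy mice, as were 2.85% of all genes tested. The group means were 95.3 ± 13.2 and 142 ± 11 CPM (SD), and the difference was 0.57 ± 0.14, or 1.48-fold. It missed the threshold in edgeR (unadjusted p = 0.00106, adjusted p = 0.0807) and passed in DESeq2 (adjusted p = 0.0116) and, in edgeR, when healthy mouse 1 was left out (0.65, adjusted p = 0.0388). Without healthy mice 2, 3 and 4, a single healthy mouse was left, and the difference was 0.38 (adjusted p = 0.752).

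Of the receptors, Tnfrsf1a (TNFR1) was at 30.3, 16.7, 21.5 and 20.4 CPM in healthy mice and at 28.3, 50.6, 46.6, 36.1 and 33.2 CPM in sick mice. Only healthy mouse 1 and sick mouse 1 crossed, and the difference of 0.77 ± 0.23 did not pass (edgeR, unadjusted p = 0.00501, adjusted p = 0.155). It was 0.38 without healthy mice 2, 3 and 4 (edgeR, adjusted p = 0.801). Tnfrsf1b (TNFR2) was at 25.1, 19.2, 8.80 and 8.74 CPM in healthy mice and at 14.8, 22.5, 10.9, 25.2 and 24.5 CPM in sick mice, which overlapped over nearly the whole range (0.32 ± 0.34, adjusted p = 0.714). The ligand Tnf was at 35.4, 29.5, 15.6 and 17.5 CPM in healthy mice and at 21.9, 27.7, 25.9, 51.2 and 37.8 CPM in sick mice. Its difference was 0.40 ± 0.30 (edgeR, adjusted p = 0.584), and sick mouse 5 held the highest value. The 95% interval ran from -0.18 to 0.98, so that a change of Tnf of 1 log2 unit upward lay just outside it and a lack of change inside it.

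The genes around these 10 were read from lists of their pathway. Of 37 other signalling genes (kinases, adaptors, ubiquitin enzymes and further subunits and inhibitors), 31 were tested in the whole joint and none passed in edgeR, while 6 were under an unadjusted p of 0.05, beside 13.8% of all genes. Their values were above 0 in 23 cases and below it in 8, beside 48% of all genes tested above 0, with a median log2 difference of 0.28. The 4 with the smallest p were Rnf31, a ligase that builds linear ubiquitin chains (2.86 against 7.17 CPM, 1.21 ± 0.39, adjusted p = 0.174), Irak3, an inhibitory kinase-like protein of the interleukin-1 receptor pathway (0.51 ± 0.19, adjusted p = 0.254), Ikbkg, the regulatory subunit of the IkB kinase (-0.70 ± 0.31, adjusted p = 0.324), and Otulin, which cleaves linear chains (0.36 ± 0.16, adjusted p = 0.329).

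Of 32 genes listed as targets of NF-kB, 25 were tested and 1 passed, in the lower direction, beside 0.94% of all genes tested. Vcam1, an adhesion molecule for leukocytes, fell from 69.9 ± 9.7 CPM (n = 4) to 39.0 ± 7.9 CPM (SD, n = 5), a log2 difference of -0.85 ± 0.18 (edgeR, adjusted p = 0.0382). Healthy mice ranged from 60.3 to 82.9 CPM and sick mice from 25.6 to 45.4 CPM. Eosinophil clusters carried Vcam1 among their 10 leading genes, and the summed level of eosinophil markers was 907 to 3269 CPM in healthy mice and 415 to 1037 CPM in sick mice, and the part of these cells in the fall was not tested. The other 24 tested targets did not pass. In edgeR, 11 of the 25 were under an unadjusted p of 0.05 (10 higher and 1 lower), beside 13.8% of all genes tested. A difference above 0 was seen in 23 of the 25 (median 0.52) and in 48% of all genes tested. The 3 next in order were Plaur, the urokinase receptor (173 against 302 CPM, 0.80 ± 0.18, adjusted p = 0.0583), and the chemokines Ccl2 (30.8 against 72.0 CPM, 1.20 ± 0.34, adjusted p = 0.123) and Ccl4 (25.3 against 60.3 CPM, 1.16 ± 0.38, adjusted p = 0.18). All 12 markers of mature neutrophils were higher in the sick mice, 2 of them past the threshold. Of the targets, Lcn2 and Mmp9 are also on the neutrophil marker lists used here, and Il1b was among the 10 leading genes of a mature neutrophil cluster. The part of neutrophils in the differences of the targets was not tested.

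Of the wider family of TNF ligands and receptors, 30 of 36 listed genes were in the matrix and 10 had counts enough for the test. None passed in edgeR, with 2 at an unadjusted p under 0.05, beside 13.8% of all genes. These were the death receptor Fas (18.7 against 32.6 CPM, 0.80 ± 0.29, adjusted p = 0.231) and Tnfrsf21, another death-domain receptor (11.2 against 19.0 CPM, 0.66 ± 0.27, adjusted p = 0.301). The next were Ltb, lymphotoxin-beta (0.45 ± 0.32, adjusted p = 0.557), and the receptor Tnfrsf14 (-0.29 ± 0.21, adjusted p = 0.571). The median of the 10 tested family members was 0.17.

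The 10 genes were not spread alike over the cell classes. The levels given next are means over mice on a scale set across all cluster classes together, and they are a description. They differ from the values within a class, and not by the same factor in both groups. In mature neutrophils Nfkbia was at 932 (healthy) and 983 CPM (sick) on this scale, but at 764 and 621 CPM within the class. Rel in sick mice was at 194 CPM there on this scale and at 124 CPM within the class. The edgeR tests of sick against healthy mice used the scale within a class. Mature neutrophil clusters (8 mice) had the highest mean of Nfkbia (964 ± 440 CPM, SD), Nfkbiz (266 ± 112), Tnfaip2 (340 ± 122), Tnfrsf1a (96.4 ± 33.8), Tnf (87.3 ± 44.9) and Rela (24.8 ± 12.9). Nfkbiz was the clearest of them: its lowest mouse in the mature neutrophil clusters was at 153 CPM, and its highest mouse in the next class, eosinophils, at 134 CPM. Immature neutrophils, with a lower mean than eosinophils, reached 167 CPM and so overlapped with mature neutrophils. For the other 5 genes the ranges of the first and the second class overlapped.

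For Nfkbia the order below mature neutrophils was erythroid (665 ± 124 CPM), eosinophil (616 ± 167), immature neutrophil (560 ± 162), B cell (455 ± 130), monocyte (427 ± 180) and granulocyte progenitor (252 ± 62), with overlap between each pair of neighbours. Tnfaip2 was second highest in erythroid clusters (223 ± 37 CPM) and lowest in the B-cell cluster (50.01 ± 37.3). Tnf was second in immature neutrophils (75.7 ± 36.0 CPM) and stood at 12.8 to 14.1 CPM in granulocyte progenitors, erythroid cells and B cells. Tnfrsf1a ranged from 96.4 CPM in mature neutrophils through 65.4 in immature neutrophils and 50.4 in monocytes to 8.93 in the B-cell cluster.

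Tnfrsf1b had another leader, the monocyte cluster (55.7 ± 43.2 CPM), followed by mature neutrophils (39.97 ± 32.2), with 7.43 ± 6.21 CPM in erythroid clusters. For Rel the order was not the same in both groups. In healthy mice its mean was highest in the B-cell cluster (267 ± 80 CPM, n = 4), followed by monocytes (181 ± 44), with mature neutrophils at 67.9 ± 45.9 (n = 3). In sick mice it was highest in mature neutrophils (194 ± 62 CPM, n = 5), followed by monocytes (143 ± 35), with the B-cell cluster at 81.8 ± 52.8. Erythroid clusters were lowest in both (31.3 ± 13.6 and 33.7 ± 21.6 CPM). Nfkb1 ranged from 62.3 ± 16.3 CPM in monocytes to 26.2 ± 7.1 in erythroid cells. Tnfaip3 was highest in eosinophils (77.0 ± 54.8 CPM) and mature neutrophils (61.6 ± 23.1), and lowest in granulocyte progenitors (10.8 ± 8.3).

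**Figure D2:**
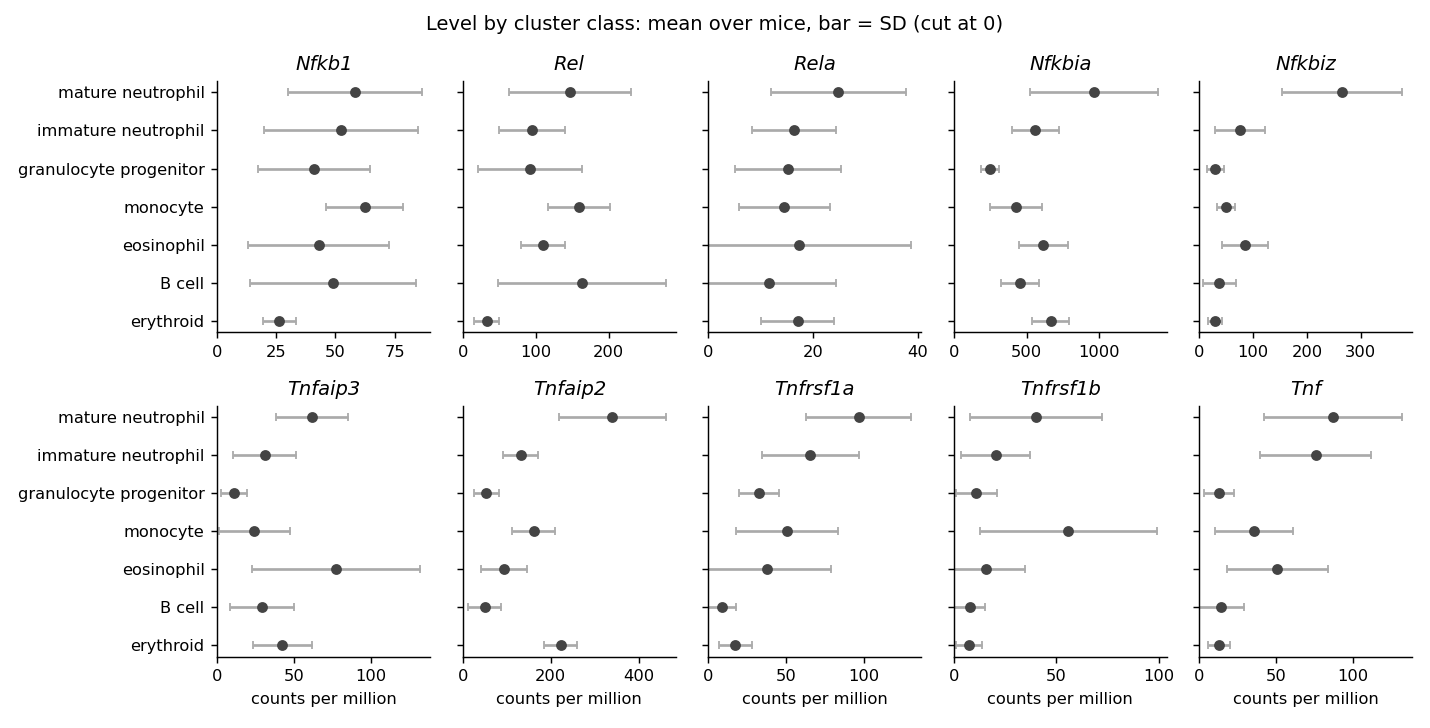
Mean level over mice of each gene in 7 cluster classes, in CPM, with the SD over mice as a bar cut at 0 (n = 9 mice, or 8 in mature neutrophils). Nfkbiz in mature neutrophils (153 to 509 CPM) is the one top class that does not overlap with the class next by mean, though it overlaps with immature neutrophils (up to 167 CPM).

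Small clusters, too few for a test, held some of the highest levels when all cells were pooled (exact Poisson intervals at 95%, which cover counting error only). The 93 cells of the mast cell or basophil cluster had 648 CPM of Nfkbiz (504 to 820), 338 CPM of Tnfaip3 (237 to 468) and 1812 CPM of Nfkbia (1566 to 2087). In the macrophage cluster Rel was at 242 CPM (204 to 285) and Tnfrsf1b at 87.9 CPM (65.6 to 115). T or NK cells, of which there were 200, had 139 CPM of Tnfaip3 (94.98 to 196) and 122 CPM of Nfkb1 (80.7 to 176). Among 112 fibroblast-cluster cells, Nfkbia reached 1166 CPM (1004 to 1347), and Tnfrsf1b was not detected in 157818 counts, which allows up to 19.0 CPM (3 counts). Single mice weighed heavily here: sick mouse 3 gave 35 of the 93 mast cell or basophil cells and 75 of the 112 fibroblast-cluster cells.

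Across the 4 gates that could be tested, each set against the mean of the other 3 with the mouse as a block, 23 of the 36 tested pairs of gene and gate passed in edgeR, beside 45.3% of such pairs over all genes. The granule-gene gate was higher for 7 of 9 genes (27.5% of all genes), with Tnf at 65.1 ± 24.95 CPM and 2.06 ± 0.22 above the others on the log2 scale and Nfkbiz at 109 ± 47 CPM and 1.48 ± 0.17 above. The monocyte gate, higher for 12.6% of all genes, was higher for Rel (1.09 ± 0.18), Tnfrsf1a (0.85 ± 0.27) and Tnfrsf1b (1.33 ± 0.31). The granulocyte progenitor gate was lower for 6 genes (20.7% of all genes), with Tnfaip2 at -1.57 ± 0.17 and Tnf at -1.42 ± 0.45. The erythroid gate, lower for 26.4% and higher for 27.4% of all genes, was lower for Nfkb1 (-0.86 ± 0.21), Rel (-1.01 ± 0.16), Tnfrsf1a (-1.004 ± 0.24) and Tnfrsf1b (-1.03 ± 0.28), and higher for Nfkbia (0.89 ± 0.11), Tnfaip2 (1.00 ± 0.11) and Tnfaip3 (0.69 ± 0.23). Rela was not tested there because of its low counts.

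Within cluster classes, the arthritis comparison gave 1 call in 29 tests of a member in a class. Of all genes, 1.05% passed in immature neutrophils, 0.531% in mature neutrophils, 0.585% in granulocyte progenitors, 0.918% in monocytes, 2.19% in the B-cell cluster, 0.543% in erythroid clusters and 1.28% in eosinophils (edgeR). In the B-cell cluster (978 cells, led by Vpreb1, Ebf1 and Igll1, genes of early B cells), Rel fell from 359, 584, 338 and 285 CPM in healthy mice to 52.7, 117, 49.3, 105 and 224 CPM in sick mice. In these scaled levels every sick mouse was below every healthy mouse, as were 2.4% of the genes tested there. The counts behind these levels were 6 to 20 per healthy and 4 to 47 per sick library. Scaling factors (TMM) were 0.748 in healthy mouse 4 and 1.06 in sick mouse 6. Relative to total counts, sick mouse 6 lay above healthy mouse 4, so the groups overlapped without the scaling. The log2 difference was -1.62 ± 0.39 (edgeR, adjusted p = 0.0130), and 42 of 1916 genes were called there. DESeq2 gave -1.73 (adjusted p = 0.00858).

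The call on Rel was not held under every setting. It was lost without a filter on low counts (-1.21, adjusted p = 0.187), in cells with at least 400 genes (-1.40, adjusted p = 0.218), and, each left out alone, without healthy mouse 2 (-1.40, adjusted p = 0.0827) or sick mouse 5 (-1.56, adjusted p = 0.0512). With healthy mouse 1 as the only healthy mouse it was -1.51 (adjusted p = 0.315), all by edgeR. None of the 10 B-cell markers tested in the cluster passed (4 higher, 6 lower), with values such as -0.82 for Blnk and -0.95 for Dntt, and the summed level of the 13 markers was 3270 to 5052 CPM in healthy mice and 3352 to 4026 CPM in sick mice. Transcripts of other cells were present and moved with the groups: the 14 erythroid markers in the matrix summed to 5649 to 10938 CPM in the B-cell cluster of healthy mice and to 1386 to 4224 CPM in that of sick mice, none of them at 0 everywhere. The 12 mature neutrophil markers summed to 1112 to 2875 CPM there in healthy mice and 2536 to 4434 CPM in sick mice, and the 10 eosinophil markers to 228 to 845 and 93.6 to 300 CPM. The 10 markers of immature neutrophils, at 9009 to 19488 and 10127 to 16577 CPM, summed to more than the B-cell markers in both groups. Of the cluster's 978 cells, 284 were in the granule-gene gate, 206 in the B-cell gate and 111 in the erythroid gate. The part of these transcripts in the fall of Rel was not tested. The share of B-cell cluster cells with a Rel UMI, at 500 UMIs per cell, was 9.22% ± 2.80 among healthy mice and 4.57% ± 3.19 among sick mice (exact permutation over 126 splits, two-sided p = 0.0952, adjusted p = 0.471), with overlap.

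**Figure D3:**
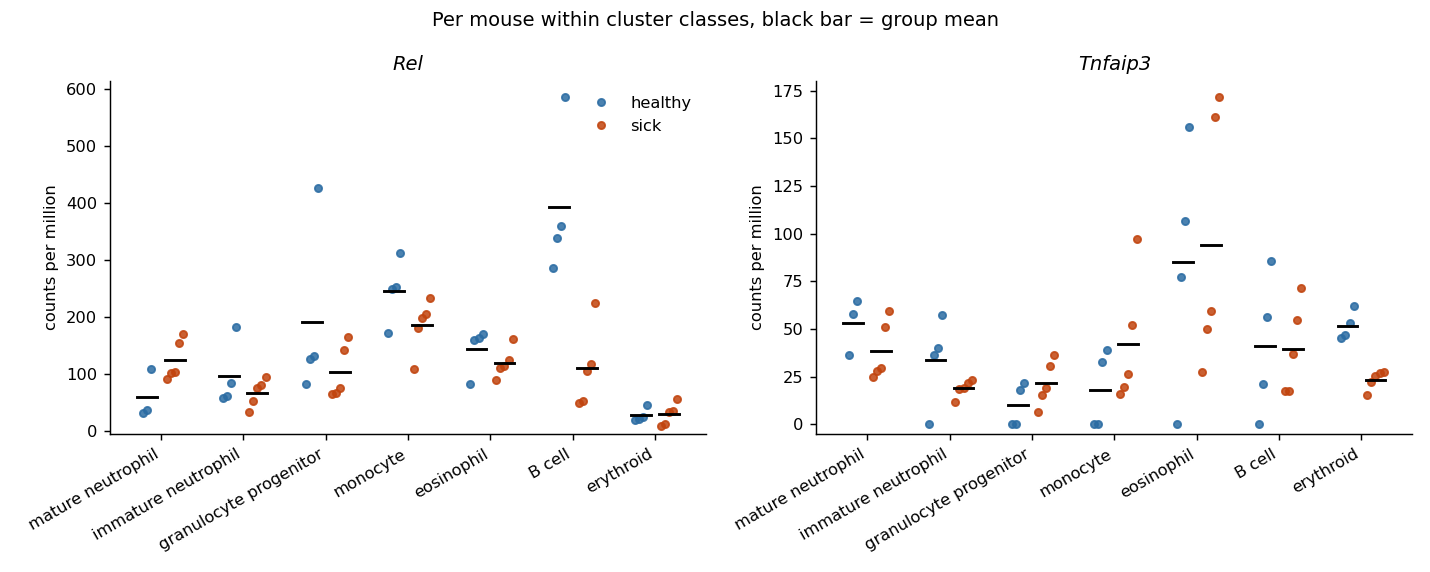
Rel and Tnfaip3 per mouse in 7 cluster classes, in CPM on a linear axis (blue healthy, orange sick, black bar the group mean). In these scaled levels, Rel in the B-cell cluster does not overlap between the groups (285 to 584 against 49.3 to 224). The same holds for Tnfaip3 in erythroid clusters (45.3 to 61.9 against 15.1 to 27.3).

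In mature neutrophil clusters the values of Rel lay the other way, at 32.0, 108 and 36.3 CPM in 3 healthy mice (healthy mouse 4 had too few cells) and at 90.4, 103, 102, 169 and 154 CPM in the sick mice. The healthy libraries held 5, 5 and 1 counts of Rel, and the difference of 1.31 ± 0.49 did not pass (edgeR, adjusted p = 0.319). Nfkbiz in these clusters was at 248 ± 94 CPM in healthy and 155 ± 42 CPM in sick mice, with overlap. Its difference of -0.79 ± 0.32 did not pass either (edgeR, unadjusted p = 0.0203, adjusted p = 0.379). In the monocyte cluster Rel was at 251, 249, 311 and 171 CPM in healthy mice and 109, 206, 233, 198 and 180 CPM in sick mice (-0.45 ± 0.27, adjusted p = 0.555). The difference between the effects in mature neutrophils and monocytes, tested on the per-mouse difference of log2 CPM in 3 healthy and 5 sick mice, was 1.99 ± 0.53 for Rel (limma, unadjusted p = 0.00319, adjusted p = 0.192). None of the 7 members in that test passed, while 1 of 4362 genes did (0.0229%) and 15.1% were at an unadjusted p under 0.05.

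Within the gates no member passed in edgeR or in DESeq2, out of 9 tested in the granule-gene gate (where 1.44% of 5829 genes passed), 6 in the erythroid gate (1.22% of 5004), 3 in the monocyte gate (0.123% of 1622) and 1 in the granulocyte progenitor gate (0.401% of 1498). At an unadjusted p under 0.05 there were 2 in the granule-gene gate, beside 16.2% of all genes there, and 2 in the erythroid gate, beside 10.1%. The other 7 members in the granule-gene gate ranged from -0.52 for Tnfaip3 to 0.13 for Tnf.

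Tnfaip2 was among these in both gates. In the granule-gene gate it was at 108, 57.9, 119 and 96.3 CPM in healthy mice and at 141, 142, 126, 134 and 139 CPM in sick mice (0.51 ± 0.20, adjusted p = 0.221), and the groups did not overlap, sick mice being above in 2.74% of all genes there. In the erythroid gate it was at 158, 131, 107 and 102 CPM in healthy mice and at 188, 197, 167, 173 and 167 CPM in sick mice (0.52 ± 0.17, adjusted p = 0.223). In these scaled levels there was again no overlap, as with 2.16% of all genes there. Scaling factors (TMM) were 1.11 in healthy mouse 1 and 0.975 in sick mouse 5. Relative to total counts, healthy mouse 1 lay above sick mouse 5, so the groups overlapped without the scaling. In cells that were both in the erythroid gate and in an erythroid cluster the difference was 0.16 (edgeR, adjusted p = 0.917). Cluster classes gave 0.64 ± 0.29 in immature neutrophils, 1.27 ± 0.44 in granulocyte progenitors, 0.38 ± 0.32 in mature neutrophils, 0.37 ± 0.18 in erythroid cells and -0.23 ± 0.26 in monocytes, and edgeR's adjusted p was 0.19 or above in each. The groups did not overlap in immature neutrophils (60.2 to 109 against 110 to 145 CPM; sick mice above healthy mice in 2.78% of all genes there) or in erythroid clusters (141 to 179 against 192 to 235 CPM; 1.63% of all genes). In the monocyte cluster the healthy mice, at 125 to 371 CPM, spread around the sick mice at 172 to 233 CPM.

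Tnfrsf1a in the granule-gene gate was at 25.7, 27.4, 23.7 and 33.2 CPM in healthy mice and at 29.98, 50.6, 70.8, 47.7 and 46.5 CPM in sick mice, where sick mouse 1 alone lay inside the healthy range (0.82 ± 0.28, unadjusted p = 0.0102, adjusted p = 0.183, edgeR). Without a filter on low counts, which moved the median of all genes in this gate by 0.20, it was 1.01 and passed (edgeR, adjusted p = 0.0458), and in cells with at least 400 genes it was 0.15 (adjusted p = 0.934). In the mature neutrophil clusters it was 0.46 ± 0.49 and in the monocyte cluster 0.51 ± 0.48. In immature neutrophil clusters, where it had too few counts for the test, the mean was 57.1 ± 44.0 CPM in healthy mice and 52.8 ± 15.6 CPM in sick mice.

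Tnfaip3 in the erythroid gate was at 49.0, 42.0, 51.9 and 50.8 CPM in healthy mice and at 33.3, 21.3, 19.8, 27.0 and 26.5 CPM in sick mice. In these scaled levels all sick mice were below all healthy mice, as for 2.24% of all genes in that gate. The difference was -0.95 ± 0.28 (edgeR, unadjusted p = 0.00235, adjusted p = 0.128). The libraries held 9 to 24 counts of Tnfaip3. Scaling factors (TMM) were 0.844 in healthy mouse 2 and 1.27 in sick mouse 1. Relative to total counts, sick mouse 1 lay above healthy mouse 2, so the groups overlapped without the scaling. In erythroid clusters, which share 1768 cells with that gate, the levels were 52.8, 61.9, 45.3 and 46.9 CPM against 22.3, 27.3, 15.1, 25.1 and 26.8 CPM, also without overlap, but Tnfaip3 did not pass the low-count filter there (1.63% of the genes tested there were lower in every sick mouse). In the granule-gene gate its difference was -0.52 ± 0.28 (edgeR, adjusted p = 0.378). In mature neutrophil clusters it was -0.59 ± 0.56. Elsewhere Tnfaip3 had too few counts for the test, and its mean level in sick mice was not lower everywhere: it was 17.9 CPM in healthy and 42.1 CPM in sick mice in the monocyte cluster, 9.95 and 21.4 in granulocyte progenitor clusters, 42.0 and 51.8 in the monocyte gate and 19.6 and 29.4 in the granulocyte progenitor gate, each with overlap. The other 3 classes overlapped too, with means of 33.5 and 18.8 CPM in immature neutrophil clusters, 40.8 and 39.6 in the B-cell cluster and 85.0 and 93.9 in eosinophils.

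**Figure D4:**
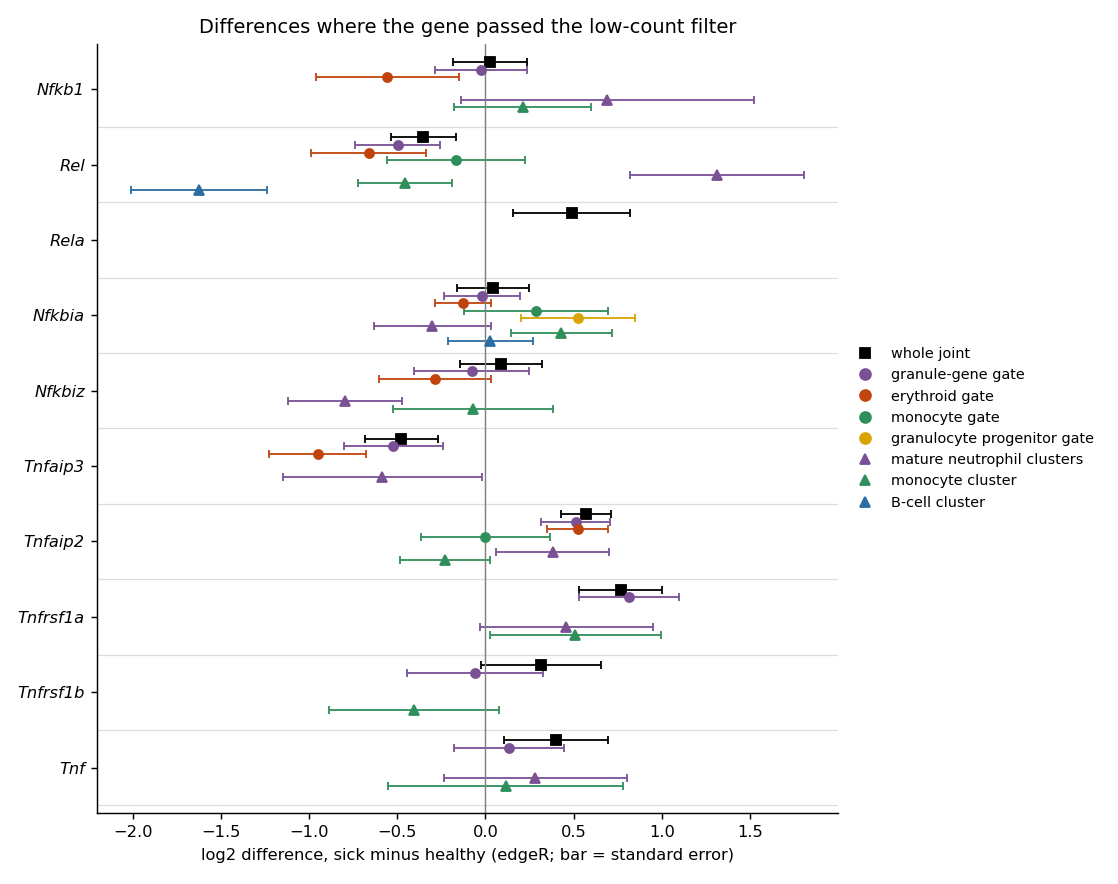
Difference between sick and healthy mice (log2, point) with its standard error (bar) for each gene in the whole joint (square), gates (circles) and 3 cluster classes (triangles), wherever the gene had counts enough for the test. Rel spans the widest range, from -1.62 in the B-cell cluster to 1.31 in mature neutrophil clusters.

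The share of cells with at least 1 UMI of a gene was compared after thinning each cell to 500 UMIs, which left out 328 healthy and 1436 sick cells and kept 4221 and 10764. In the granule-gene gate, Tnfrsf1a was found in 1.40% ± 0.34 of cells in healthy mice (1.06% to 1.74%) and 2.40% ± 0.23 in sick mice (2.14% to 2.69%), without overlap (exact permutation over 126 splits, two-sided p = 0.0159, the smallest this design can give, and 0.211 adjusted over all genes of the gate). In that gate 7.53% of 5110 genes did not overlap, 6.95% being higher in sick mice, so that 1 of the 8 members counted is near the background. No member counted did so in the granulocyte progenitor gate (2.15% of genes) or in the erythroid gate (6.6%). Unthinned, the shares were 2.42% and 4.92%, at median depths of 863 and 828 UMIs per cell. In immature neutrophil clusters the order of the means was the other way, and Tnfrsf1a was found in 4.05% ± 2.86 of the healthy and 2.13% ± 0.47 of the sick mice's cells, with overlap (exact permutation, two-sided p = 0.238, adjusted p = 0.699). In the erythroid gate, Tnfrsf1a was in 0.643% ± 0.582 and 1.09% ± 0.56 of cells at median depths of 1063 and 1269 UMIs. Tnfrsf1b, at 0.212% to 0.817% in healthy mice and 0.857% to 1.15% in sick mice in the granule-gene gate, did not overlap either, but its mean was under the 1% needed to enter the comparison.

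Tnfaip2 was in 3.76% ± 1.43 of granule-gene-gate cells in healthy mice and 6.57% ± 0.59 in sick mice, with healthy mouse 1 (5.76%) above sick mouse 4 (5.57%) and no other overlap (exact permutation p = 0.0317, adjusted p = 0.242), and in 4.45% ± 2.70 and 8.18% ± 1.84 of erythroid-gate cells. Nfkbia was in 16.8% ± 6.3 and 18.8% ± 4.9 of granule-gene-gate cells and in 18.6% ± 5.9 and 21.5% ± 2.35 of erythroid-gate cells, a like share in both gates. Over all mice these means were 17.9% ± 5.3 and 20.2% ± 4.2. The mean was lower in the granulocyte progenitor gate, at 10.9% ± 5.1. The part of free RNA in the wells in these shares was not tested. The shares of Nfkbia are therefore not read as the number of cells that make it. Tnf differed more between the granule-gene gate (1.38% ± 1.43 and 2.82% ± 1.12) and the erythroid gate (0.553% ± 0.409 and 0.505% ± 0.390).

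Among cluster classes, groups did not overlap for Tnfaip2 in immature neutrophils (2.76% ± 0.70 against 5.81% ± 0.80, sick mice above in 3.29% of all genes) and in granulocyte progenitors (1.03% ± 1.33 against 4.33% ± 1.10, 3.1% of all genes). In granulocyte progenitors the same held for Tnfrsf1b, which had no positive cell at this depth in any healthy mouse and 0.488% to 2.86% positive cells in sick mice. Nfkb1 had no positive cell in 3 healthy mice and 1.21% to 4.90% in sick mice in mature neutrophils, and Rel 3.06% ± 0.73 and 5.38% ± 0.90, with 6.6% of all genes there not overlapping in this direction (56 splits, smallest exact permutation p = 0.0357). Nfkbiz in the B-cell cluster had none in healthy mice against 1.58% to 4.03% in sick mice, as for 5.38% of all genes. The adjusted p was 0.279 or above for each of these 6 (exact permutation). Healthy mice had few cells in these classes. Before thinning there were 39 to 191 per mouse in the 3 healthy mice used for mature neutrophils, and 34 to 101 in the B-cell cluster. A share of 0 there is therefore a lack of detection at this depth. Unthinned, Nfkb1 was in 2.58% and 3.36% of mature neutrophils, with mean levels of 45.7 ± 39.8 CPM in healthy and 41.9 ± 15.8 CPM in sick mice. These healthy levels rest on 5 counts in all, with 1 library at 0. The log2 difference of Nfkb1 in that class was 0.69 ± 0.83 (edgeR, adjusted p = 0.852), so the direction of its level is not settled. For Nfkbiz in the B-cell cluster the mean levels were 54.6 ± 63.1 and 50.4 ± 28.5 CPM. The others of these 6 had higher mean levels in sick mice.

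**Figure D5:**
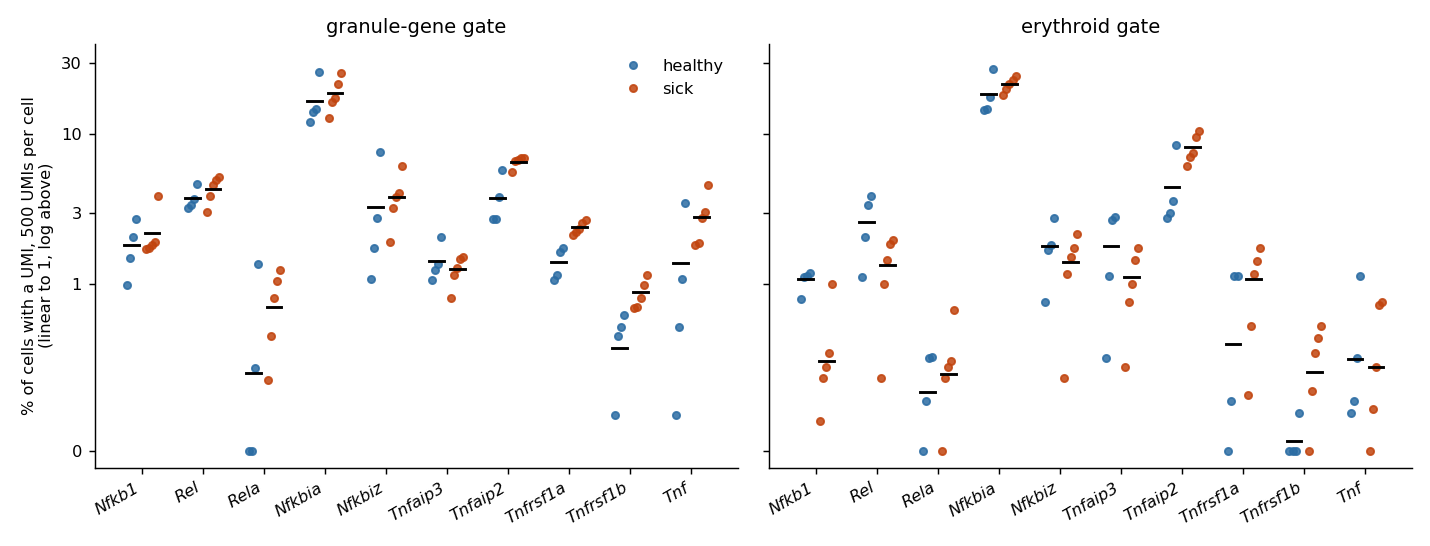
Share of cells with a UMI of each gene per mouse after thinning to 500 UMIs, in the granule-gene gate and the erythroid gate (blue healthy, orange sick, black bar the group mean; axis linear to 1% and logarithmic above). Tnfrsf1a in the granule-gene gate lies at 1.06% to 1.74% in healthy mice and 2.14% to 2.69% in sick mice.

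Likeness of pattern was measured as Pearson's r of log2 CPM over 35 sums of a mouse and a gate, among 5113 genes, as a description of points that share mice and libraries. Among the 10 genes themselves, Nfkbia went most closely with Tnfaip3 (r = 0.74) and Tnfaip2 (r = 0.72), and Nfkb1 with Rel (r = 0.64), whereas Tnfaip3 and Tnfrsf1b had the lowest value (r = -0.20). Over all genes, the closest to Nfkbia were Eif1 (0.88), Fth1 (0.87) and Gm6977 (0.84), those to Tnfaip2 were Sh3glb1 (0.86), Ubp1 (0.81) and Ap2a2 (0.80), and those to Tnfaip3 were Slc16a6 (0.83), Fcho2 (0.82) and Ube2f (0.79). Tnf was closest to Cd300lf (0.79), Ly6g (0.78) and Fpr2 (0.77), of which Ly6g is a marker of the granule-gene gate. Nfkbiz was closest to Grk6 (0.82), Chmp2a (0.80) and Dhrs7 (0.80), and Rel to Plekho1 (0.76), 9130208D14Rik (0.75) and Lyn (0.75). Of the receptors, Tnfrsf1a was closest to Ninj1 (0.75), Ints12 (0.73) and Ppp4c (0.73), and Tnfrsf1b to Sept9 (0.76), Cfp (0.72) and Snx20 (0.71). For Nfkb1 they were Ankrd44 (0.76), Kctd20 (0.75) and Spop (0.74), and Rela had too few counts to enter.

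By position (GENCODE M21, GRCm38, all protein-coding), the genes lie on 9 chromosomes: Nfkb1 at chr3:135584655-135691547, Rel at chr11:23736847-23770970, Rela at chr19:5637483-5648130, Nfkbia at chr12:55489410-55492647, Nfkbiz at chr16:55811375-55838899, Tnfaip3 at chr10:19000910-19015657, Tnfaip2 at chr12:111442469-111455018, Tnfrsf1a at chr6:125349362-125362484, Tnfrsf1b at chr4:145213463-145246870 and Tnf at chr17:35199381-35202007. Rela, Tnfaip2 and Tnfrsf1a are on the plus strand and the other 7 on the minus strand. Nfkbia and Tnfaip2 share chromosome 12 and are far apart on it.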

How the data were processed

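Single-cell RNA counts of whole left knee joints were analysed for 9 mice, 4 healthy and 5 sick, grouped by the labels, which do not say whether mice were handled on the same day. The authors deposited 1 table of raw counts (UMIs, whole numbers per gene and cell). Per the submitters' processing notes bcl2fastq, Picard and STAR were used, with builds GRCm38 and mm9 named, while the labels' protocols name GRCh38, so the build behind the counts is unsettled. Its gene symbols are mouse symbols, and positions were taken by symbol.

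A cell needed 200 detected genes and was dropped above 20% mitochondrial counts. No doublet caller was run, so doublets remain. Gates needed 3 distinct markers (179 of 187 markers in the matrix, 19 classes), cells tied between classes entered none, and mice with under 20 cells of a class were left out. Leiden clusters (scanpy 1.11.5, leidenalg 0.10.2, 2000 variable genes without the 10 members, 30 components, 20 clusters) were chosen as classes after seeing how widely granule genes were found. A cluster took the name of the list with most markers among its leading genes and was left unnamed below 3 such markers or where its leading genes went against the name.

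Counts were summed per mouse and tested with edgeR 4.0.16 (filterByExpr, TMM, quasi-likelihood, Benjamini-Hochberg over all genes tested), with DESeq2 1.42.0 and limma 3.58.1 (trend) beside it. CPM are scaled with the TMM factors of their comparison. Since the labels name separate mice, p-values measure the spread between mice. Shares used cells thinned to 500 UMIs and exact permutation over mice, two-sided. The planned test between mature neutrophil and monocyte gates had only 1 healthy mouse with enough cells and was made on cluster classes. On simulated data with 200 changed genes, the test called 57% of 2-fold and 88% of 4-fold changes in the whole joint (10323 genes), 51% and 90% in the granule-gene gate (5829 genes) and 38% and 75% in the monocyte gate (1622 genes). False calls numbered 5, 5 and 8. The simulated libraries differed in depth but not in composition, and genes of like level had a like spread. These shares cover genes of all levels, so they do not give the power for the members.

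The members and lists were chosen with earlier results of these data known. All members are named, as are, of each pathway list, the genes called or otherwise up to 4 with the smallest p, and the 3 genes most like each member. Alternatives were other scaling, filters, gates, thinning depths, each mouse left out, healthy mice 2 to 4 left out together and the mouse number as a block. Python 3.11.15, numpy 2.4.6, scipy 1.17.1, pandas 2.3.3 and matplotlib 3.10.9 were used.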

Additional observations from a re-analysis of the deposited data

Results flagged for a closer look

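Of 55 groups of 4 or 5 mice checked for a single distant value, 2 had one, and chance gives about 1 in 20. Nfkbia in the granule-gene gate of healthy mouse 1 was the highest of its group at 606 CPM, with the other 3 healthy mice at 409 to 427 CPM. This is the healthy mouse that the other 3 stand apart from, and without it the difference of Nfkbia between sick and healthy mice in this gate went from -0.02 to 0.17. Nfkb1 in the erythroid gate of sick mouse 1 was the lowest of its group at 2.38 CPM, from a single count, while the other sick mice held 14 to 20 counts and 19.4 to 25.2 CPM.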

How the results depend on the processing

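Over 34 differences of single genes, 567 values under other settings were computed, of which 505 kept their direction and side of the threshold, 54 changed sign, 5 lost a call and 3 gained one. Each sign change was of a value that had not passed in either setting. The number of members called in the whole joint went from 0 to 1 with DESeq2 and from 0 to 1 when mice were left out in turn (range 0 to 1). Within gates it went from 0 to 1 without a filter on low counts, and within cluster classes from 1 to 0 without that filter, without healthy mice 2, 3 and 4, and in cells with at least 400 genes, with a range of 0 to 1 over single mice left out. The number of members whose shares did not overlap within gates was 1, and was 2 with gates of at least 2 markers and 1 to 6 over single mice left out, where 6 came without healthy mouse 1. Pairs of member and gate called in the comparison of levels numbered 23, and 18 to 24 over mice left out. All genes called in the whole joint numbered 97, and 252 with DESeq2, 282 without the filter, 51 in cells with at least 400 genes, 60 in named clusters only, 12 without healthy mice 2, 3 and 4, and 53 to 255 over single mice left out. Within gates they numbered 153, and 593 without the filter, 58 in cells with at least 400 genes, 19 without those 3 mice, 66 to 592 over single mice left out, and 39 in cells of a gate and its own cluster. Within cluster classes they numbered 162, and under these 4 kinds of setting 327, 64, 46 and 81 to 266.

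The labels do not say whether the mouse number pairs mice. Same-numbered mice correlated at 0.17, -0.05 and 0.07, and none of the 3 healthy mice correlated best with its own number. Whether same-numbered mice were handled together was not tested. With the number as a replicate block, members called stayed at 0 in the whole joint, 0 within gates and 1 within cluster classes (70, 87 and 139 genes in all, against 97, 153 and 162 without it). Signs changed with the block for Nfkbia in the whole joint (-0.27) and the monocyte gate (-0.41), and in the granule-gene gate for Nfkb1 (0.28) and Tnf (-0.23). Without healthy mice 2, 3 and 4 the value was -0.16 for Nfkbia, -0.46 for Nfkbiz, -0.32 for Tnfrsf1b and -0.0879 for Tnf in the whole joint, 0.27 for Nfkb1, 0.00944 for Rel and -0.28 for Tnf in the granule-gene gate, 0.00543 for Rel and 0.0797 for Tnfaip2 in the monocyte gate and 0.0464 for Nfkbiz in the erythroid gate. Without a filter on low counts, which moved the median of all genes by 0.09 in the whole joint, 0.20 in the granule-gene gate, 0.16 in the erythroid gate, 0.31 in the monocyte gate and 0.38 in the granulocyte progenitor gate, it was 0.18 for Nfkb1, 0.18 for Nfkbia, 0.11 for Nfkbiz and 0.14 for Tnfrsf1b in the granule-gene gate, 0.14 for Rel and 0.30 for Tnfaip2 in the monocyte gate and 0.0440 for Nfkbia in the erythroid gate. In cells with at least 400 genes it was 0.66 for Nfkb1 and 0.23 for Nfkbia in the granule-gene gate and 0.35 for Tnfaip2 in the monocyte gate. Gates of at least 4 markers gave 0.0156 for Nfkb1 and 0.0122 for Nfkbia in the granule-gene gate, and gates of at least 2 markers 0.0529 for Tnfrsf1b there and 0.0764 for Tnfaip2 in the monocyte gate. In gated cells only, Nfkb1 in the whole joint was -0.0709. The cause of these changes was not tested.

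Over single mice left out, the differences that changed sign ranged, in the whole joint, from -0.13 to 0.18 for Nfkb1, -0.12 to 0.16 for Nfkbia and -0.0710 to 0.38 for Nfkbiz. In the granule-gene gate they ranged from -0.14 to 0.27 for Nfkb1, -0.15 to 0.17 for Nfkbia, -0.31 to 0.48 for Nfkbiz, -0.29 to 0.36 for Tnfrsf1b and -0.11 to 0.44 for Tnf, and in the monocyte gate from -0.35 to 0.23 for Rel and -0.10 to 0.19 for Tnfaip2. In the B-cell cluster Rel ranged from -2.10 to -1.40. Tnfaip2 in the whole joint kept its sign in all 18 other settings (0.38 to 0.66), as did Tnfrsf1a (0.38 to 0.98) and Tnfaip3 (-0.74 to -0.32). The test of the difference of effects could not be made on gates of at least 2 markers, which left too few healthy mice. Libraries with few cells limit the gates: a single healthy mouse held as few as 1 count of Rel in the monocyte gate.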
